A study of Mus musculus with 7 samples.

Results

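Conventional dendritic cells were read from a single-cell RNA data set of the mouse heart. They were taken by a fixed rule from the unique molecular identifier (UMI) counts of each cell, not by clustering. A cell had at least 5 UMIs of the MHC class II genes H2-Aa and H2-Ab1 together, at least 1 UMI of at least 2 of the 6 dendritic genes Flt3, Zbtb46, Xcr1, Clec9a, Cd209a and Ccr7, at most 2 UMIs of C1qa, C1qb and C1qc together, and 0 UMIs of Cd79a and of Cd3e. The rule found 570 of 40158 cells (1.42%). The cells were thus selected on the measured UMIs of these rule genes, so those levels are given as a description with no test.

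Hearts came from MerTK KO mice at P1 (postnatal day 1) and from C57BL6/J mice (WT) at 8 weeks or at P1, after myocardial infarction (MI) or a sham operation. Mertk KO P1 MI, Mertk KO P1 sham, WT 8 week MI, WT 8 week sham and WT P1 sham had 1 library each, and WT P1 MI had 2. All libraries came from digested tissue in which CD45+ leukocytes had been enriched and mixed again with CD45- cells at 2 to 1, so the share of a cell type is not its share of the heart. The labels leave out the deleted stretch of Mertk, the time between surgery and sampling, the number of animals in a library, and whether different animals gave the 2 WT P1 MI libraries.

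Conventional dendritic cells take up antigen in tissues and carry it to T cells. The cDC1 kind bears the chemokine receptor XCR1 and CLEC9A, a receptor for actin filaments exposed on dead cells, depends on BATF3 and IRF8, and is known for presenting antigen of dead cells on MHC class I. The cDC2 kind depends in part on IRF4 and bears lectins such as CD209A. On maturation both kinds take on CCR7, the receptor that guides them through lymph vessels to the lymph node.

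The promoters of the genes that divide the cells are shown here because the sides are cut on them, with Cd209d, a CD209-family lectin gene of the cDC2 list. Each is the 250 bases before the gene's start, on the gene's own strand, from RefSeq on GRCm38.p6. Xcr1 is at chr9:123862030-123862279 (minus strand), Clec9a at chr6:129408612-129408861 (plus strand), Cd209a at chr8:3748985-3749234 (minus strand) and Cd209d at chr8:3878500-3878749 (minus strand). Capitals mark a match to a searched motif.
Xcr1: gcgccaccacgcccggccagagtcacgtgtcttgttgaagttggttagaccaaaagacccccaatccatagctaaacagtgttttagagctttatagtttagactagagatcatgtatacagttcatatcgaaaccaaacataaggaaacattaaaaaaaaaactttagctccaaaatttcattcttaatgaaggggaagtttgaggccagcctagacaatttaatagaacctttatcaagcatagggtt
Clec9a: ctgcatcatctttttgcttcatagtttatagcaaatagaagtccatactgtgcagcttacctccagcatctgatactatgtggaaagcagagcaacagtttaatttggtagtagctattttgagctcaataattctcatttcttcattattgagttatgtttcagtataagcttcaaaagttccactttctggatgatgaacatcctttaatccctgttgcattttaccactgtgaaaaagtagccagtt
Cd209a: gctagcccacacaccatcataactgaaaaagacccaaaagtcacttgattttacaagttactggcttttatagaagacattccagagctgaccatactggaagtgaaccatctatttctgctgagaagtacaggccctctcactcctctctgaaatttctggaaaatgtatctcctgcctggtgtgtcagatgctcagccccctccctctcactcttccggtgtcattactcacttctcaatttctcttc
Cd209d: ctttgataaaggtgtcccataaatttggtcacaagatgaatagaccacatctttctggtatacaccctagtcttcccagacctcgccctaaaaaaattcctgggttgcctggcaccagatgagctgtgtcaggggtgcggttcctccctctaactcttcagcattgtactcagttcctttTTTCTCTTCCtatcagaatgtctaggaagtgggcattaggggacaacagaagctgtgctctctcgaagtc

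Both motifs searched are forms bound by interferon regulatory factors, read on both strands, and a stretch can match both. The ETS-IRF composite form (GGAA, any 2 bases, then GAAA) was in 753 of 32536 promoters (2.31%), and an interferon-response form (GAAA, any 2 bases, then GAAA) in 969 (2.98%). Among genes with a promoter in the table, the ETS-IRF form was in 0 of 15 of the cDC1 list, in 1 of 13 of the cDC2 list (Cd209d, on the other strand, TTTCTCTTCC) and in 1 of 20 of the maturation list (Samsn1). The interferon-response form was in 2 of 15 of the cDC1 list (Ifi205 and Tlr11), 0 of 13 of the cDC2 list and 1 of 20 of the maturation list (Apol7c). Neither was in the windows of Xcr1, Clec9a and Cd209a.

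Library totals ran from 7707724 UMIs (WT 8 week MI) to 130847843 UMIs (WT P1 MI replicate 2), and 773 to 15312 cells were kept per library. WT 8 week MI stood apart in depth, with a median of 2152 UMIs per kept cell against 4167 to 11408 in the other 6 libraries. Up to 41 cell barcodes (at most 0.613% of the smaller library) were shared by a pair of libraries, and 0 of those were dendritic cells. Xist, transcribed in female cells, was at 0 and 0.0365 UMIs per 1000000 UMIs (CPM) in WT 8 week MI and WT 8 week sham and at 46.3 to 933 CPM in the other 5 libraries, and Ddx3y, a Y-linked gene, was at 0 CPM in Mertk KO P1 sham. Age and sex can therefore not be told apart here. Xist and Ddx3y were at 760 and 0 CPM in Mertk KO P1 sham, 46.3 and 52.9 CPM in Mertk KO P1 MI, and 342 and 83.1 CPM in WT P1 sham. They were at 933 and 16.3 CPM in WT P1 MI replicate 1 and 413 and 14.6 CPM in replicate 2. Sex can thus also not be told apart from genotype or from MI in the comparisons of Mertk KO libraries. Nor can it be told apart from MI in WT P1 hearts. The WT P1 MI replicates were not 1 library deposited again: they shared 2 cell barcodes (0.259% of the smaller library). In summed dendritic counts, 1345 of 4276 genes (31.5%) were at least 2-fold apart. Replicate 1 had only 5 dendritic cells, so counting error adds to that share.

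Dendritic cells made up the highest share of cells in the sham-operated hearts of 8 week animals. They were 12 of 6607 cells in Mertk KO P1 MI (0.182%, exact binomial 95% interval 0.0939 to 0.317%) and 36 of 2611 in Mertk KO P1 sham (1.38%, 0.968 to 1.90%). They were 9 of 3130 in WT 8 week MI (0.288%, 0.132 to 0.545%) and 460 of 15312 in WT 8 week sham (3.004%, 2.74 to 3.29%). They were 5 of 773 (0.647%) in WT P1 MI replicate 1, 39 of 10135 (0.385%) in replicate 2, and 9 of 1590 in WT P1 sham (0.566%, 0.259 to 1.07%). At the depth as sequenced, the interval after MI lay below that after sham in Mertk KO P1 and in WT 8 week hearts, whereas in WT P1 hearts the intervals of both MI libraries overlapped that of sham. These intervals cover counting error only and the spread between animals is not in them.

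Set against leukocytes (cells with a Ptprc UMI) the order between MI and sham was the same where it could be read: 0.222% in Mertk KO P1 MI against 2.42% in Mertk KO P1 sham, and 0.420% in WT 8 week MI against 4.40% in WT 8 week sham. In WT P1 hearts it was 1.89% and 1.21% in MI replicates 1 and 2 against 1.01% in sham. Cells with a Ptprc UMI were an unequal part of the kept cells. They were 4946 of 6607 in Mertk KO P1 MI and 1445 of 2611 in Mertk KO P1 sham. They were 952 of 3130 in WT 8 week MI and 9560 of 15312 in WT 8 week sham. In WT P1 hearts they were 265 of 773 and 2735 of 10135 in MI replicates 1 and 2, and 792 of 1590 in sham. The rule needs rare transcripts, so the shares were also taken at equal depth. With every cell thinned to 1500 UMIs before the rule (380, 182, 864, 974, 73, 948 and 132 shallower cells left out), 3, 7, 6, 89, 0, 3 and 2 dendritic cells were left. Both runs of counts are in the order Mertk KO P1 MI, Mertk KO P1 sham, WT 8 week MI, WT 8 week sham, WT P1 MI replicate 1, replicate 2, WT P1 sham. The thinned shares were 0.0482% in Mertk KO P1 MI (0.00994 to 0.141%) against 0.288% in Mertk KO P1 sham (0.116 to 0.593%), and 0.265% in WT 8 week MI (0.0972 to 0.575%) against 0.621% in WT 8 week sham (0.499 to 0.763%). At equal depth the intervals of MI and sham thus overlapped in both pairs, and 0% and 0.0327% in WT P1 MI replicates 1 and 2 were lower than the share in Mertk KO P1 MI. Among thinned cells with a Ptprc UMI the shares were 0.0650% in Mertk KO P1 MI against 0.323% in Mertk KO P1 sham, and 0.436% in WT 8 week MI against 0.561% in WT 8 week sham.

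**Figure D1:**
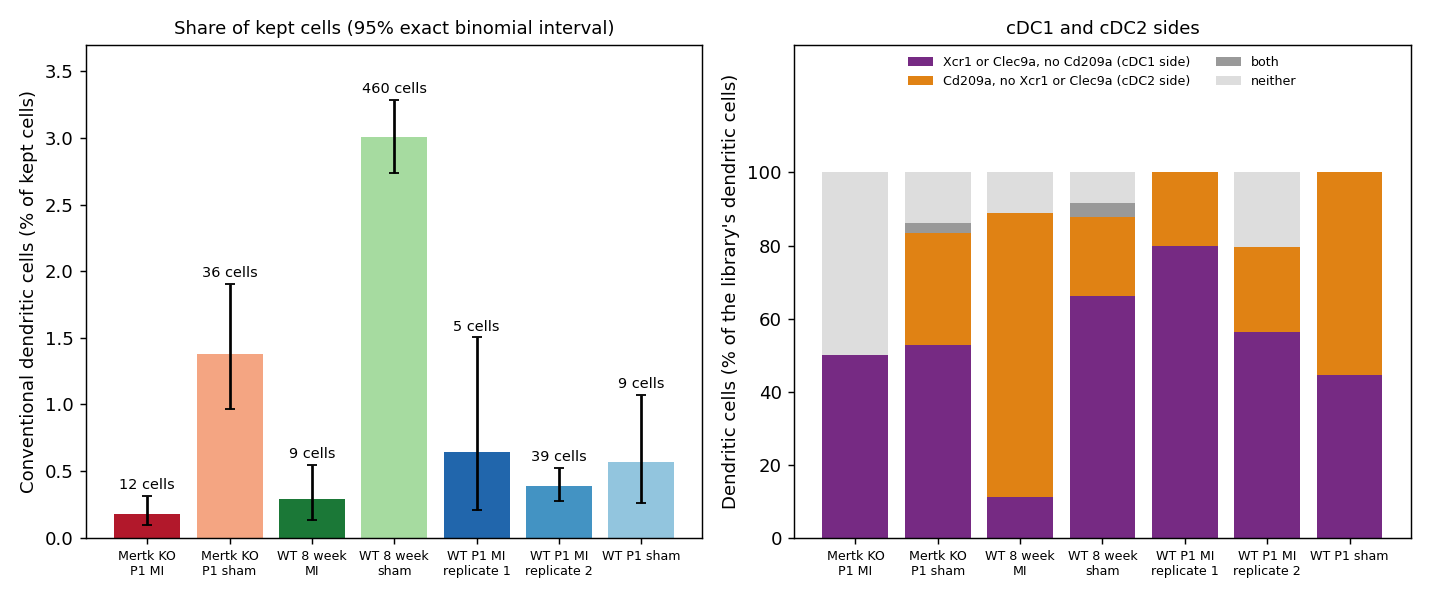
Left, dendritic cells as a percentage of kept cells (y axis) in each of the 7 libraries (x axis), with exact binomial 95% intervals and the number of cells above each bar. Right, the percentage of each library's dendritic cells with Xcr1 or Clec9a only, Cd209a only, both or neither; the WT 8 week sham bar on the left stands highest at 3.004%, and the Mertk KO P1 MI bar on the right holds 0 Cd209a-only cells.

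The cells lay close to the rule's edge in 1 respect. Of the 570, 246 had exactly 2 of the 6 dendritic genes and 324 had 3 or more, while 269 cells that met every other criterion stood just outside with 1. Over all libraries together, 6 cells had 5 or 6 class II UMIs against 9 outside with 3 or 4, 13 cells had 2 C1q UMIs against 3 outside with 3, and 470 cells had 0 C1q UMIs. WT 8 week MI lay closer to these edges: all 9 of its cells had exactly 2 dendritic genes, with 32 cells outside at 1, and 3 of the 9 had 0 C1q UMIs. A further 280 cells were left out because they held Cd79a or Cd3e, which mark B cells and T cells.

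The name was checked against markers the rule did not use. Summed CPM of 18 cDC1-list genes was 3099 in Mertk KO P1 MI, 4618 in Mertk KO P1 sham, 2501 in WT 8 week MI, 4748 in WT 8 week sham, 5193 in WT P1 MI replicate 1, 2437 in replicate 2 and 2328.5 in WT P1 sham. Summed CPM of 18 cDC2-list genes did not set the cells apart: it was 2704, 3246, 2251, 2315, 3455, 3059 and 4036 in the same order, against 6054, 5319, 2058, 3518, 3595, 4376 and 4616 in cells with class II and C1q, so it was lower in dendritic cells in 6 of 7 libraries. Irf8, the factor that sets cDC1 fate, was at 909, 944, 750.2, 1005, 724, 478 and 464 CPM in the same order, and so was detected in every library. Batf3 was at 166, 149.6, 188, 175, 178, 121 and 108 CPM, and was likewise present throughout. Free RNA sets a floor under shares of cells with a UMI: in WT 8 week sham Xcr1 was seen in 60.9% of dendritic cells (median 14299 UMIs) and in 0.301% of fibroblasts (median 9064 UMIs), and Cd209a in 25.2% and 0.226%. After thinning to 1500 UMIs Xcr1 was in 20.7% of dendritic cells and 0% of fibroblasts, and Cd209a in 12.9% and 0.151%.

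Transcripts of other lineages were present and unequal between libraries. The 14 neutrophil genes summed to 1431 CPM in Mertk KO P1 MI, 279.8 in Mertk KO P1 sham, 250.1 in WT 8 week MI, 476 in WT 8 week sham, 0 in WT P1 MI replicate 1, 23819 in replicate 2 and 0 in WT P1 sham. In WT P1 MI replicate 2, 3244 of 7222 S100a8 UMIs were in 1 cell and 7 of 39 cells had 50 or more. The 10 fibroblast genes summed to 256 to 1581 CPM, highest in WT 8 week sham, and the 10 endothelial genes to 31.6 to 1830 CPM, highest in WT P1 MI replicate 2. The 12 macrophage genes summed to 66.9 to 1455 CPM, highest in Mertk KO P1 MI, against 8825 to 15822 CPM in cells of the same libraries with class II and C1q. The 12 monocyte genes summed to 6301 CPM in Mertk KO P1 MI, 2292 in Mertk KO P1 sham, 7127 in WT 8 week MI, 1555 in WT 8 week sham, 814 in WT P1 MI replicate 1, 4277 in replicate 2 and 2163 in WT P1 sham. Plasmacytoid markers Siglech and Ccr9 were at 0 UMIs in Mertk KO P1 MI, both WT P1 MI libraries and WT P1 sham, and at 221 and 110 UMIs in WT 8 week sham. What part these transcripts have in the comparisons was not tested beyond leaving out the cells that carry them.

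Levels of the rule genes varied widely between libraries. Flt3, the growth factor receptor that dendritic cells depend on, was at 63.2 CPM in Mertk KO P1 MI, 111 in Mertk KO P1 sham, 313 in WT 8 week MI (5 UMIs), 89.6 in WT 8 week sham, 156 in WT P1 MI replicate 1, 61.4 in replicate 2 and 99.4 in WT P1 sham. Zbtb46, a transcription factor of the conventional lineage, was at 47.4, 33.0, 125, 36.4, 44.6, 27.0 and 16.6 CPM in that order. In WT 8 week sham 133 cells had both, 199 Flt3 alone, 61 Zbtb46 alone and 67 neither, so a single gene of the pair was the usual state there. Xcr1 was at 111, 68.0, 62.5, 198, 22.3, 85.4 and 24.9 CPM and Clec9a at 166, 159, 62.5, 131, 111, 74.9 and 66.3 CPM in the same order. Xcr1 stood highest in WT 8 week sham, whereas Clec9a stood highest in the 2 Mertk KO libraries. Cd209a was at 0 CPM in Mertk KO P1 MI, 159 in Mertk KO P1 sham, 1000.3 in WT 8 week MI (16 UMIs), 139 in WT 8 week sham, 156 in WT P1 MI replicate 1 (14 UMIs in 1 cell), 52.5 in replicate 2 and 505 in WT P1 sham (61 UMIs in 5 cells). The highest values of Cd209a thus came from libraries of 9 cells.

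Cells with Xcr1 or Clec9a and no Cd209a (the cDC1 side) outnumbered those with Cd209a alone (the cDC2 side) in all libraries except WT 8 week MI and WT P1 sham. In all, 361 cells were on the cDC1 side, 132 on the cDC2 side, 18 had both and 59 neither. The rule does not treat the sides alike. A cell can enter on Xcr1 and Clec9a alone, whereas a cell of the cDC2 side needs Flt3, Zbtb46 or Ccr7 besides Cd209a. The balance of the sides is therefore partly set by the rule. The cDC1 and cDC2 sides held 6 and 0 cells in Mertk KO P1 MI, 19 and 11 in Mertk KO P1 sham, 1 and 7 in WT 8 week MI, 305 and 99 in WT 8 week sham, 4 and 1 in WT P1 MI replicate 1, 22 and 9 in WT P1 MI replicate 2, and 4 and 5 in WT P1 sham. WT 8 week MI was the library with the largest cDC2 side, at 77.8% of its 9 cells (40.0 to 97.2%), against 21.5% in WT 8 week sham (17.9 to 25.6%). That library's dendritic cells had a median of 1551 UMIs, and those of WT 8 week sham 14299 UMIs. The side is named there by Cd209a alone. The cDC2 list summed to 2251 CPM in those 9 cells, the lowest of all libraries, and the monocyte list to 7127 CPM, the highest. A general dendritic list of 10 genes was also lowest there, at 8190 CPM against 13159 to 30853 CPM elsewhere, though above the 3999 CPM of its cells with class II and C1q. Of the 9 cells, 4 had a Ptprc UMI. The 0 of 12 cells on the cDC2 side of Mertk KO P1 MI have an exact upper bound of 26.5%, inside the interval of Mertk KO P1 sham (30.6%, 16.3 to 48.1%), so a lower share was not detectable at this depth.

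Of the cells with Clec9a, Xcr1 was also seen in 8 of 19 in Mertk KO P1 sham (42.1%, 20.3 to 66.5%) and in 252 of 294 in WT 8 week sham (85.7%, 81.2 to 89.5%). It was seen in 4 of 5 in Mertk KO P1 MI, 14 of 18 in WT P1 MI replicate 2 (77.8%, 52.4 to 93.6%), 1 of 4 in replicate 1, 1 of 3 in WT P1 sham and 1 of 1 in WT 8 week MI. Median depth was 13086 UMIs in Mertk KO P1 sham and 14299 UMIs in WT 8 week sham. The difference was not tested. Across all dendritic cells Clec9a was at 159 CPM in Mertk KO P1 sham and 131 CPM in WT 8 week sham, and Xcr1 at 68.0 and 198 CPM.

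The sides differed in the genes known for each kind. In the 2 libraries with at least 10 cells of each side (Mertk KO P1 sham and WT 8 week sham), 539 of 8839 genes (6.1%) were at least 2-fold higher on the cDC1 side in both and 424 (4.8%) were lower. With 0.5 counts added to each side the split was 451 (5.1%) and 512 (5.79%). The side was cut on genes of the same cells, so this is no test. Of 18 genes of the cDC1 list, 16 were higher and none was lower. Irf8 was at 1419.5 CPM on the cDC1 side and 69.5 CPM on the cDC2 side in Mertk KO P1 sham, and at 1309 and 90.9 CPM in WT 8 week sham. Tlr3, the endosomal sensor of double-stranded RNA, was at 152 and 0 CPM in Mertk KO P1 sham and 132 and 2.48 CPM in WT 8 week sham. Itgae, which encodes the CD103 integrin chain, was at 117.5 and 0 CPM, and 161 and 0 CPM. Wdfy4, needed for cross-presentation, was at 676 and 125 CPM, and 334 and 86.0 CPM. Batf3 missed the 2-fold mark in Mertk KO P1 sham, at 194 and 97.3 CPM, and was at 199 and 54.5 CPM in WT 8 week sham.

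On the cDC2 side 11 of 15 genes of its list were higher, that is lower on the cDC1 side, and Clec12a ran the other way. Mgl2 and Clec10a, both lectins of the MGL family, were at 0 and 3.18 CPM on the cDC1 side of Mertk KO P1 sham and 250.1 and 827 CPM on its cDC2 side. In WT 8 week sham Mgl2 was at 10.7 CPM on the cDC1 side and 853 CPM on the cDC2 side, and Clec10a at 7.96 and 535 CPM. Irf4 was at 0 and 69.5 CPM in Mertk KO P1 sham and 2.98 and 33.9 CPM in WT 8 week sham. Il1b, the inflammatory cytokine, was at 1289 and 3515 CPM, and 702 and 3666 CPM. Markers of plasmacytoid dendritic cells moved with the cDC2 side, 5 of 11 being lower on the cDC1 side, with Tcf4 at 28.6 and 229 CPM in Mertk KO P1 sham and 52.7 and 143 CPM in WT 8 week sham. So did Ly6c2, a monocyte marker, at 9.53 and 118 CPM, and 14.5 and 139.7 CPM. Their part in the difference was not tested. Of 17 efferocytosis genes 5 were lower on the cDC1 side (Cd300a, Cd300lf, Lrp1, Mfge8 and Timd4), and of 16 eicosanoid genes 4 were lower (Hpgd, Lta4h, Ltb4r1 and Ptgs2) and 2 higher (Ptger2 and Ptgis). Timd4, a phosphatidylserine receptor, was at 63.5 CPM on the cDC1 side and 313 CPM on the cDC2 side in Mertk KO P1 sham, and at 10.1 and 22.3 CPM in WT 8 week sham.

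Genes of dividing cells were higher on the cDC1 side for 13 of 18 listed. Mki67, a marker of proliferation, was at 197 and 6.95 CPM on the cDC1 and cDC2 sides in Mertk KO P1 sham, and 92.1 and 33.1 CPM in WT 8 week sham. Mki67 or Top2a was seen in 8 of 19 and 2 of 11 cells in Mertk KO P1 sham, and in 90 of 305 (29.5%, 24.4 to 35.0%) and 17 of 99 cells (17.2%, 10.3 to 26.1%) in WT 8 week sham. In WT P1 MI replicate 2 the order was the other way, with 8 of 22 and 5 of 9 cells. Over both sides, cells with either gene were 1 of 12 in Mertk KO P1 MI, 10 of 36 in Mertk KO P1 sham, 0 of 9 in WT 8 week MI, 119 of 460 in WT 8 week sham, 3 of 5 in WT P1 MI replicate 1, 14 of 39 in replicate 2 and 4 of 9 in WT P1 sham. The 0 of 9 in WT 8 week MI have an exact upper bound of 33.6%.

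**Figure D2:**
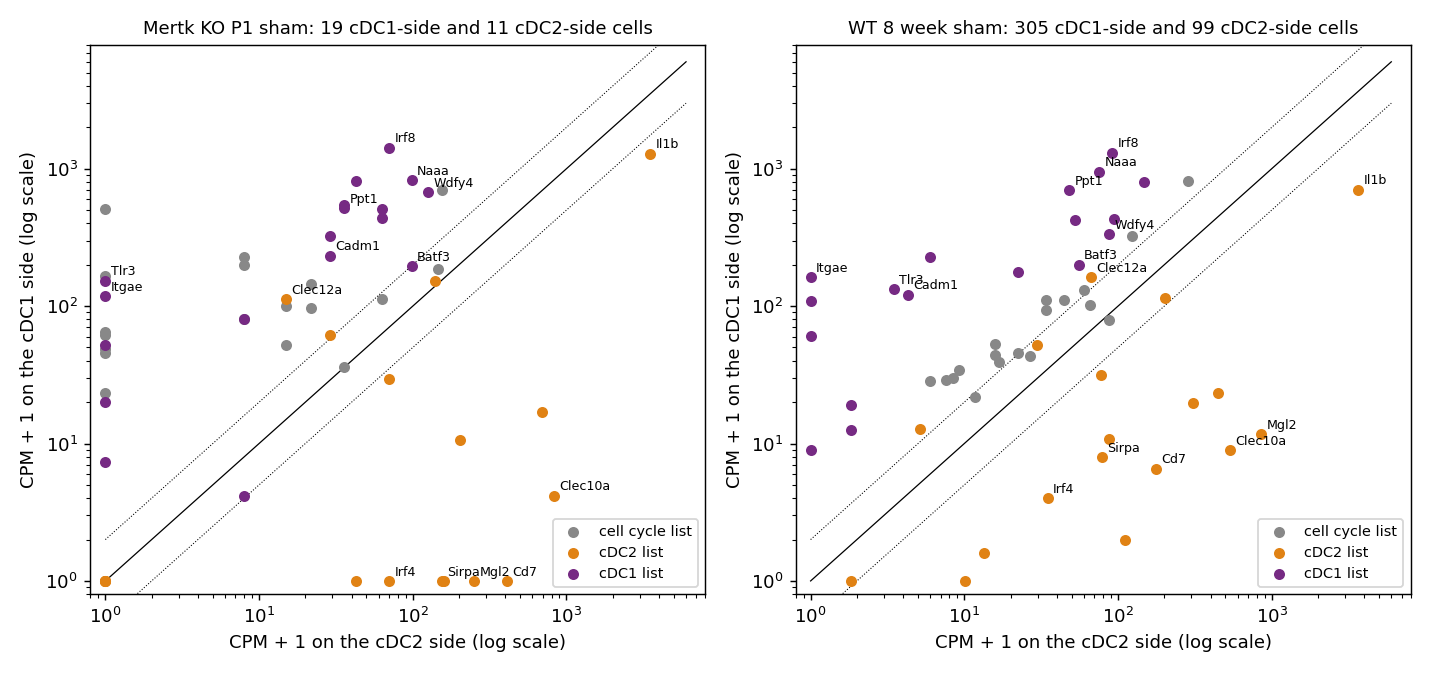
CPM + 1 on the cDC1 side (y axis) against the cDC2 side (x axis), log scales, in Mertk KO P1 sham and WT 8 week sham, each point being a gene of the cDC1, cDC2 or cell cycle list. The solid line is equality and the dotted lines are 2-fold; the cDC1-list genes Irf8, Tlr3 and Itgae lie above the lines and the cDC2-list genes Mgl2 and Clec10a below them in both libraries.

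Ccr7, which marks maturing and migrating dendritic cells, was seen in 132 of the 570 cells: 6 of 12 in Mertk KO P1 MI, 11 of 36 in Mertk KO P1 sham, 2 of 9 in WT 8 week MI, 95 of 460 in WT 8 week sham, 0 of 5 in WT P1 MI replicate 1, 15 of 39 in replicate 2 and 3 of 9 in WT P1 sham. Of the 59 cells on neither side, 56 had Ccr7. Its level was 854 CPM in Mertk KO P1 MI, 289 CPM in Mertk KO P1 sham, 188 CPM in WT 8 week MI, 117 CPM in WT 8 week sham, 0 in WT P1 MI replicate 1, 315 CPM in replicate 2 and 33.1 CPM in WT P1 sham. B cells also carry Ccr7, at 421 CPM in WT 8 week sham, and fibroblasts there gave 4.74 CPM. Ccr7 was rarer on the cDC1 side, in 0 of 19 cells against 6 of 11 on the cDC2 side in Mertk KO P1 sham, and in 26 of 305 (8.52%, 5.64 to 12.2%) against 31 of 99 (31.3%, 22.4 to 41.4%) in WT 8 week sham. In WT P1 MI replicate 2 it was in 4 of 22 against 3 of 9. Ccr7 counts toward the rule, but a cell can enter the cDC1 side on Xcr1 and Clec9a with no Ccr7. A cell of the cDC2 side needs Flt3, Zbtb46 or Ccr7 besides Cd209a, and a cell on neither side needs 2 of Flt3, Zbtb46 and Ccr7. These shares are thus partly set by the rule and are a description.

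Maturation genes were higher in cells with Ccr7. In the 3 libraries with at least 10 cells of each kind, 204 of 9442 genes (2.16%) were at least 2-fold higher in cells with Ccr7 in every library and 198 (2.1%) lower. This contrast was chosen after the data were seen and is a description. The split depends on how counts are added to low genes: with 0.5 added to each kind it was 297 higher (3.15%) and 129 lower (1.37%). Of 28 maturation-list genes, 22 were higher and none was lower. Fscn1, which bundles actin in mature dendritic cells, was at 336 CPM with Ccr7 and 0 without in Mertk KO P1 sham, 303 and 3.59 CPM in WT 8 week sham, and 772 and 32.2 CPM in WT P1 MI replicate 2. Il4i1, an amino acid oxidase, was at 181 and 0 CPM, 313 and 18.7 CPM, and 139 and 10.7 CPM. Cacnb3, a calcium channel subunit, was at 215 and 5.02 CPM, 112 and 2.33 CPM, and 203 and 2.15 CPM. Cd274, which encodes PD-L1, was at 129 and 5.02 CPM, 51.1 and 4.13 CPM, and 44.6 and 10.7 CPM. Fabp5, a fatty acid carrier that is on no list, was at 3048 and 10.0 CPM, 3899.6 and 111 CPM, and 1486 and 139.7 CPM.

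The cDC1 list went the other way, with 12 of 18 genes lower in cells with Ccr7 and none higher. Naaa was at 51.7 CPM with Ccr7 and 675 CPM without in Mertk KO P1 sham, 229 and 832 CPM in WT 8 week sham, and 49.5 and 417 CPM in WT P1 MI replicate 2. Tlr3 was at 0 and 120.4 CPM, 30.4 and 114 CPM, and 9.90 and 77.4 CPM. Of 15 cDC2-list genes 3 were higher (Clec10a, Irf4 and Relb). Cells with and without Ccr7 also differed in their mix of sides. Of cells on the cDC1 side, Ccr7 was in 0 of 19 in Mertk KO P1 sham, 26 of 305 in WT 8 week sham and 4 of 22 in WT P1 MI replicate 2. The part of this mix in the cDC1-list and cDC2-list differences was not tested. None of the 15 class II pathway genes passed 2-fold in all 3 libraries, and H2-Eb1 was at 3789 and 5339 CPM, 8595 and 7446 CPM, and 3773 and 4384 CPM. The costimulatory gene Cd86 did not pass either, at 189 and 150.5 CPM, 167 and 127 CPM, and 153.5 and 88.1 CPM.

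The amount of Ccr7 separated the cells further. Fscn1 was seen in 23 of 40 cells with 5 or more Ccr7 UMIs in WT 8 week sham (57.5%, 40.9 to 73.0%), in 10 of 55 with 1 to 4 (18.2%, 9.08 to 30.9%) and in 15 of 365 with none (4.11%). In WT P1 MI replicate 2 these counts were 8 of 9, 1 of 6 and 5 of 24, in Mertk KO P1 sham 4 of 5, 0 of 6 and 0 of 25, and in Mertk KO P1 MI 2 of 4, 0 of 2 and 0 of 6. Fscn1 was at 0 UMIs in WT 8 week MI, WT P1 MI replicate 1 and WT P1 sham, which together held 5 cells with Ccr7, none of them with 5 or more UMIs.

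**Figure D3:**
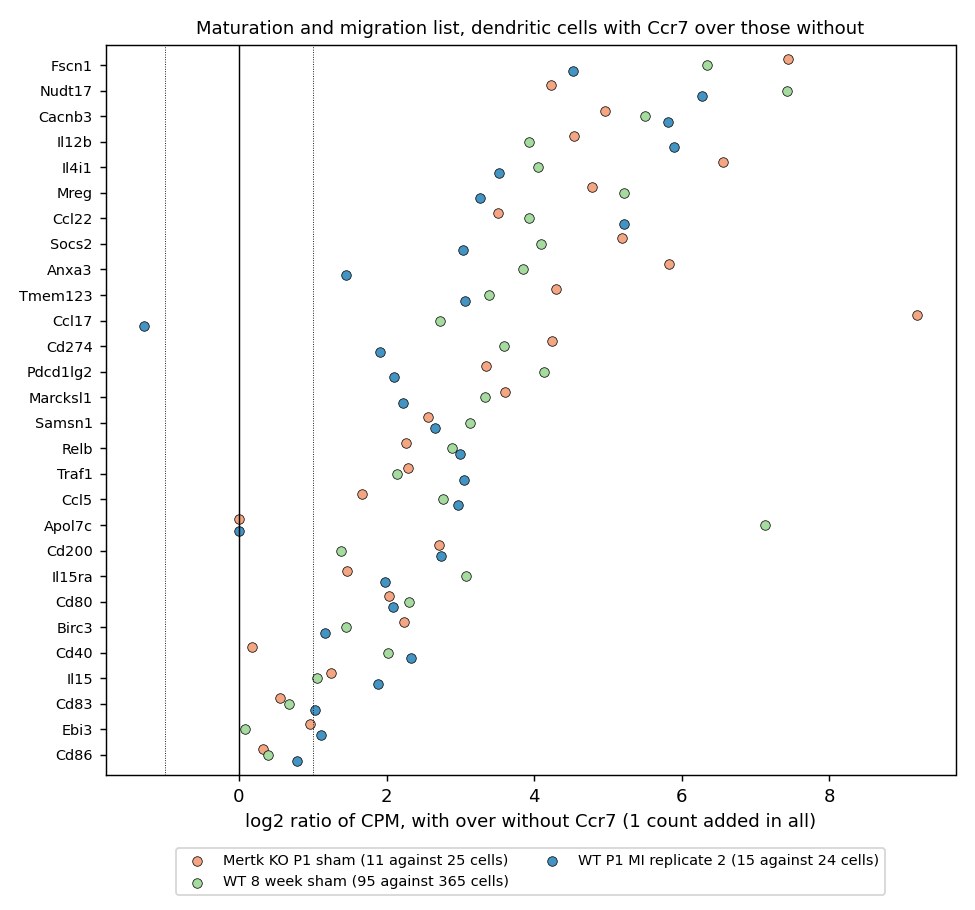
Maturation-list genes (rows) with the log2 ratio of CPM in dendritic cells with Ccr7 over those without (x axis) in Mertk KO P1 sham, WT 8 week sham and WT P1 MI replicate 2. Dotted lines mark 2-fold; ratios against 0 UMIs are drawn with counts added. Fscn1 lies right of the 2-fold line in the 3 libraries, while Ccl17 lies left of equality in WT P1 MI replicate 2, where it had 1 UMI.

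Dendritic cells were then set beside class II cells that hold at least 3 C1q UMIs (1013 cells), which carry the macrophage list. In the 4 libraries with at least 10 of each, 152 of 11601 genes (1.31%) were at least 2-fold higher in dendritic cells in every library and 382 (3.29%) lower. With 0.5 counts added to each class the split was 214 (1.84%) and 236 (2.03%). The rule cuts on C1q, so this too is a description. Genes of the cDC1 list were higher in 15 of 18, with Naaa at 253 CPM in dendritic cells and 33.7 CPM in C1q cells in Mertk KO P1 MI, 534 and 104 CPM in Mertk KO P1 sham, 715 and 209 CPM in WT 8 week sham, and 306 and 69.2 CPM in WT P1 MI replicate 2. Macrophage-list genes were lower in 11 of 12. Of 16 cDC2-list genes none was higher and 2 were lower (Itgam and Sirpa).

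In the class II pathway 5 of 15 genes were higher in dendritic cells and 1 lower. H2-Ob, a chain of the H2-O brake on peptide loading, was at 47.4 and 3.64 CPM, 95.2 and 11.8 CPM, 108 and 25.4 CPM, and 52.5 and 4.94 CPM in the same 4 libraries. H2-Oa, H2-Eb1, H2-Eb2 and H2-DMb1 were the other 4. Lgmn, a lysosomal protease, was lower, at 71.1 and 202 CPM, 56.3 and 473 CPM, 37.1 and 378 CPM, and 82.4 and 546 CPM. On the class I side 5 of 24 genes were higher, among them the immunoproteasome subunit Psmb9 (332 and 106 CPM, 307 and 70.9 CPM, 714 and 189 CPM, 351 and 123 CPM) and the peptide transporter genes Tap1 and Tap2. Cybb, a subunit of the phagocyte oxidase, was the 1 gene of that list that was lower.

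Mertk itself, the receptor for dead cells that the knockout targets, was nearly silent in dendritic cells. It had 5 UMIs in all 570 cells, all in WT 8 week sham (5 of 460 cells, 0.723 CPM). C1q cells held 25.5 CPM in Mertk KO P1 MI, 21.3 in Mertk KO P1 sham, 28.1 in WT 8 week MI, 48.4 in WT 8 week sham, 59.5 in WT P1 MI replicate 1, 17.5 in replicate 2 and 0 in WT P1 sham (3 cells). Counts of 0 in dendritic cells allow up to 23.7 CPM in Mertk KO P1 MI, 5.83 in Mertk KO P1 sham, 188 in WT 8 week MI, 33.4 and 4.50 in WT P1 MI replicates 1 and 2 and 24.9 in WT P1 sham. The gap to C1q cells was thus measurable in Mertk KO P1 sham, WT 8 week sham and WT P1 MI replicate 2, and not detectable at this depth in WT 8 week MI. The limit of 23.7 CPM in Mertk KO P1 MI lay close to the 25.5 CPM of its C1q cells, so a gap of 2-fold could not be read there. In WT 8 week sham 1.09% of dendritic cells had a Mertk UMI, below the 4.99% of T cells (median 5584 UMIs), which should lack the gene. UMIs of Mertk in libraries labelled Mertk KO do not check the labels, since the 3′ tag may lie outside the deleted stretch, which the labels do not give.

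Of 26 efferocytosis genes, 9 were lower in dendritic cells than in C1q cells in all 4 libraries, with counts added, and 1 was higher. Those lower were Mertk, Stab1, Marco, Msr1, Olr1, Lrp1, Itgb5, Thbs1 and Abca1, receptors and partners of uptake and a cholesterol exporter. Mertk, Stab1 and Olr1 were at 0 UMIs in Mertk KO P1 MI, and against the limit of 23.7 CPM none of them was 2-fold lower in that library. Stab1, a scavenger receptor, was at 0 CPM in dendritic cells and 36.4 CPM in C1q cells in Mertk KO P1 MI, 1.94 and 61.4 CPM in Mertk KO P1 sham, 2.02 and 49.9 CPM in WT 8 week sham, and 4.50 and 84.5 CPM in WT P1 MI replicate 2. Havcr2, which encodes the phosphatidylserine-binding TIM-3, was the gene that was higher, at 55.3 and 20.9 CPM, 79.7 and 23.6 CPM, 69.8 and 28.8 CPM, and 51.0 and 19.8 CPM. Timd4, another such receptor, was at 71.1 and 1.82 CPM, 130.2 and 68.5 CPM, 11.6 and 8.29 CPM, and 14.99 and 9.14 CPM, so it was above C1q cells in each library without passing 2-fold in all. Its level over the dendritic cells of WT P1 MI was uneven, at 334 CPM in replicate 1 (5 cells) and 14.99 CPM in replicate 2.

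Of 22 genes of eicosanoid synthesis and sensing, 6 were lower in dendritic cells and none was higher. The prostaglandin synthases Ptgs1 and Ptgs2, the phospholipase Pla2g4a, thromboxane synthase Tbxas1, leukotriene C4 synthase Ltc4s and Hpgd, which inactivates prostaglandins, were those lower. Ltc4s was at 7.91 and 43.7 CPM in Mertk KO P1 MI, 15.5 and 106 CPM in Mertk KO P1 sham, 7.80 and 715 CPM in WT 8 week sham, and 1.499 and 60.5 CPM in WT P1 MI replicate 2. Alox5ap, the helper protein of 5-lipoxygenase, stayed within 2-fold, at 751 and 1096 CPM, 876 and 737 CPM, 807 and 1017 CPM, and 944 and 913 CPM. Its enzyme partner Alox5 had 31 UMIs in all 570 cells.

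**Figure D4:**
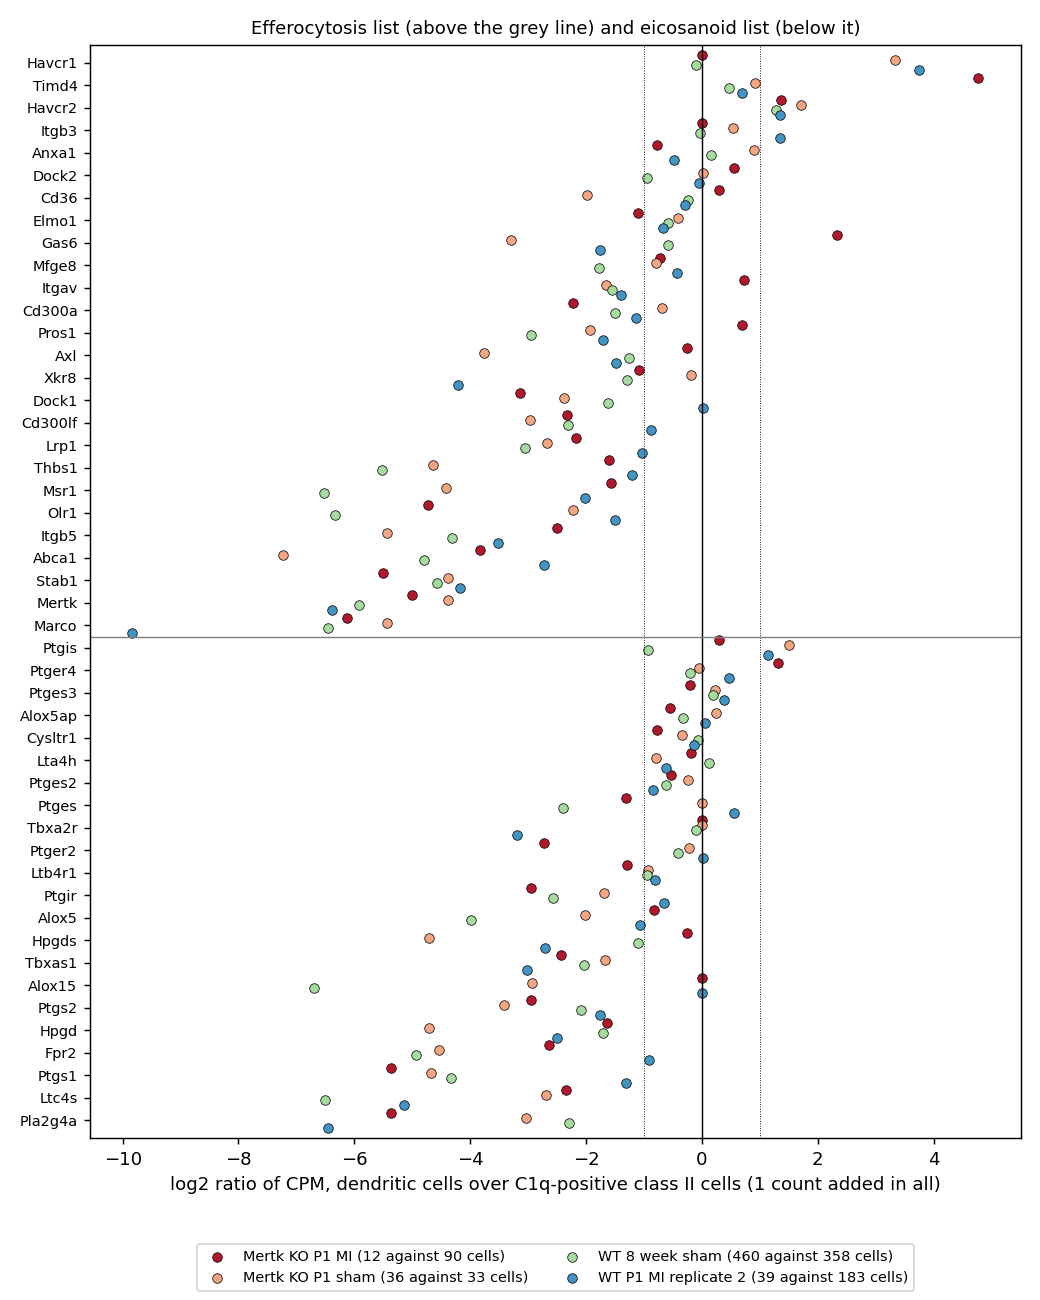
Efferocytosis-list genes (above the grey line) and eicosanoid-list genes (below it) with the log2 ratio of CPM in dendritic cells over C1q-positive class II cells (x axis) in 4 libraries. Dotted lines mark 2-fold; Mertk, at 0 UMIs in 3 of the 4 libraries, is drawn with counts added there, while Havcr2 lies at 1.37, 1.71, 1.28 and 1.36, and Alox5ap between -0.54 and 0.25.

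Comparisons between conditions used summed counts of the dendritic cells of each library. Those with WT P1 MI on either side were tested, with edgeR's quasi-likelihood test over 3020 genes and Benjamini-Hochberg adjustment. The spread came from the 2 WT P1 MI libraries (1 residual degree of freedom), 1 of them with 5 cells, and every lone library was assumed to vary like them. Nothing says that these 2 libraries were separate animals, so the p-values measure a spread that may be technical.

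Infarcted Mertk KO hearts differed from infarcted WT hearts at P1 in 1 gene of 3020 (0.0331% called), Ccl17, which encodes the T cell attracting chemokine CCL17. It had 226 UMIs in Mertk KO P1 MI (1787 CPM), against 0 and 1 UMIs in WT P1 MI replicates 1 and 2 (0 and 1.499 CPM), and the log2 fold change was 10.31 ± 0.85 (SE, edgeR, adjusted p = 0.00461). DESeq2 also called 1 gene (0.0331%), and 65 genes had an unadjusted edgeR p under 0.05. Of the 226 UMIs, 202 were in 1 cell of 12 and the other 24 in another cell. With the highest Ccl17 cell of every library taken out, which also takes the only UMI of WT P1 MI replicate 2, the log2 fold change was 10.77 ± 1.56 (edgeR, adjusted p = 0.273). Among cells with no Ccr7 it was -3.78 ± 7.06 (edgeR, adjusted p = 1), which rests on 0 UMIs in Mertk KO P1 MI and 1 UMI in WT P1 MI replicate 2 and gives no direction.

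Other maturation genes were high in the same library without passing the test. Ccl22, the companion chemokine of Ccl17, was at 1012 CPM in Mertk KO P1 MI and 0 and 42.0 CPM in WT P1 MI replicates 1 and 2 (log2 fold change 5.07 ± 0.88, edgeR adjusted p = 0.380), with 65 and 62 of its 128 UMIs in 2 cells. Il12b, the shared chain of IL-12 and IL-23, was at 830 CPM and 0 and 106 CPM (3.61 ± 1.00, edgeR adjusted p = 1). The interferon-induced gene Gbp2 was at 339.9 CPM and 11.1 and 8.99 CPM (5.18 ± 0.87, edgeR adjusted p = 0.380). Of 20 maturation-list genes tested 1 was called, with a median log2 fold change of 1.22 against -0.04 over all 3020 genes. For 8 eicosanoid genes, 11 efferocytosis genes and 11 class II genes none was called, with medians of -0.50, -0.88 and 0.10. In the same library the macrophage list was at 1455 CPM and the neutrophil list at 1431 CPM, against 66.9 and 916 CPM and 0 and 23819 CPM in the WT P1 MI libraries. The monocyte list was at 6301 CPM, against 814 and 4277 CPM, with 0 of 9 tested genes called and a median log2 fold change of 1.08. The part of these lists was not tested.

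Infarcted 8 week hearts differed from infarcted P1 hearts in Ccl17 alone (1 of 3020, 0.0331%). Ccl17 had 13 UMIs in WT 8 week MI (813 CPM) against 0 and 1 in WT P1 MI, with a log2 fold change of 8.59 ± 0.92 (edgeR, adjusted p = 0.0343). Of the 13 UMIs, 12 were in 1 cell. With the highest Ccl17 cell of every library taken out, the log2 fold change was 8.59 ± 3.04 (edgeR, adjusted p = 0.389). That fold rests on 1 UMI in WT 8 week MI against 0 in the WT P1 MI libraries, so its size cannot be read. Neither cell with Ccl17 in WT 8 week MI held Ccr7. In all, 333 genes had an unadjusted p under 0.05, and DESeq2 called 28 (0.927%). Class II genes stood high in the 9 cells of WT 8 week MI without passing the test: Cd74, the invariant chain, was at 93273 CPM against 18344 and 11207 CPM (2.18 ± 0.39, edgeR adjusted p = 0.152), and H2-DMb2 at 938 against 44.6 and 43.5 CPM (3.87 ± 0.69, edgeR adjusted p = 0.148). Irf7, a master factor of the interferon response, was at 813 against 33.4 and 16.5 CPM (4.75 ± 0.83, edgeR adjusted p = 0.148). TMM scaling set the median of all genes at -0.80, against -0.35 without it, so these values lie above a shifted median. Of 11 class II genes tested 4 had an unadjusted p under 0.05, with a median of 1.40, and of 11 interferon genes 5 did, with a median of 3.44, each with 0 called.

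In P1 hearts of WT animals no gene of 3020 was called after MI against sham by edgeR (0%), with 74 at an unadjusted p under 0.05 and 1 called by DESeq2. Calls depended on which cells and libraries entered: 26 genes were called without the cells that carry other lineages' markers and 42 with only the 3 libraries compared. Areg, an epidermal growth factor family ligand, was at 0 and 45.0 CPM in WT P1 MI replicates 1 and 2 and 365 CPM in WT P1 sham (-3.33 ± 0.92, edgeR adjusted p = 1). Il1b was at 1961 and 2069.7 CPM in WT P1 MI and 2254 CPM in WT P1 sham. S100a8 was at 0 and 10824 CPM in the 2 MI libraries and 0 in sham, a gap between replicates as wide as the comparison. Of 14 cDC1-list, 13 cDC2-list and 20 maturation-list genes none was called, with median log2 fold changes of 0.54, -0.08 and 0.29 against 0.10 over all genes. Whether MI over sham differed with genotype at P1 or with age was tested in the same fit as interactions, a test added after the data were seen: edgeR called 0 genes for each (38 and 261 at an unadjusted p under 0.05, lowest adjusted p 0.9999 and 0.342).

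The remaining comparisons have 1 library on each side and were not tested. A gene is named where CPM differed at least 4-fold with 0.5 counts added and the higher library held at least 30 UMIs. After MI against sham in Mertk KO P1 hearts, 24 of 2409 genes (0.996%) were higher and 52 (2.16%) lower, 3.15% in all. Of 14 maturation-list genes 5 were higher: Ccl22 at 1012 against 21.4 CPM, Il12b at 830 against 9.71 CPM, Ccl5, a chemokine for T cells and monocytes, at 2941 against 311 CPM, Ccl17 at 1787 against 254.5 CPM, and Fscn1 at 356 against 75.8 CPM. Their median log2 ratio was 1.12 over the 14, against -0.20 over all 2409 genes. Among cells with no Ccr7 the log2 ratio was 0.43 in place of 5.51 for Ccl22 and 2.75 in place of 6.29 for Il12b, and 2 genes were higher and 55 lower of 1897 compared. Ccl22 was in 0 of 6 such cells in Mertk KO P1 MI, so its 0.43 rests on the counts added. Equal counts on both sides, such as 0 against 0, give 2.75 here through the totals alone, so the Il12b value gives no direction. Of 10 cDC2-list genes 3 were lower, Clec10a (1 UMI, 7.91 CPM, interval up to 44.0, against 233 CPM), Cd7 and Mgl2 (0 CPM, which allows up to 23.7, against 69.9 CPM), and of 10 cell cycle genes 5 were lower, Mki67 among them at 23.7 against 122 CPM. Mgl2 turned to a log2 ratio of 1.01 without the cells that carry other lineages' markers, which rests on the counts added to 0 UMIs in Mertk KO P1 MI.

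Other genes high in Mertk KO P1 MI against sham were G0s2, an inhibitor of fat breakdown, at 443 CPM against 0 (at least 76.0-fold), Hp, Csta2, Apoc2, and the matrix genes Sparc and Dcn. Without the cells that carry other lineages' markers Dcn turned to -0.13, and the log2 ratio was 3.33 in place of 8.85 for G0s2 and 1.01 in place of 5.005 for Sparc. Among cells with no Ccr7, Hp and Apoc2 turned to -1.34 and -0.42, and the log2 ratio was 2.75 for G0s2 and 1.16 in place of 4.96 for Csta2. For G0s2, 3.33 and 2.75 are what 0 UMIs on both sides give through the totals alone, so none of its signal was left. Sparc, Dcn, Hp, Csta2 and Apoc2 had 4 to 8 UMIs in all cells of Mertk KO P1 sham. Their ratios in these smaller sets thus also lean on the counts added and give no direction. Low were Cdca8, Nusap1, Cnot3, Smu1, Fabp4 and Ly6c2, each at 0 UMIs in the 12 cells of Mertk KO P1 MI, where 3 counts are worth 23.7 CPM. None of the 7 lower genes at 0 UMIs reached 4-fold against that limit.

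In WT 8 week hearts 7 of 8963 genes (0.0781%) were higher after MI than after sham and 145 (1.62%) lower, 1.7% in all. The 9 cells of the MI library held 15996 UMIs, so 110 of the 145 lower genes were at 0 UMIs there, and 0 of these 110 reach 4-fold when 0 is set at the limit of 188 CPM. Among the lower genes were Eif3f, Scand1, Gnb2, Anp32b, Mpeg1 and H2-T23, and Sparc and Dcn, whose log2 ratios turned to 0.85 and 1.75 without the cells that carry other lineages' markers. Sparc and Dcn were at 0 UMIs after MI, so these ratios rest on the counts added. Measured on more UMIs, the cystatin gene Cst3 was at 6877 CPM after MI against 29084 CPM after sham, with 110 UMIs in the lower library. Naaa and Id2 of the cDC1 list were lower on 2 and 1 UMIs. Higher were Wfdc17, an antiprotease-like secreted protein, at 3876 against 317 CPM (12.3-fold), the lysozyme gene Lyz2 at 3438 against 521 CPM, Plac8 at 2313 against 492 CPM, and Fcer1g, the shared Fc receptor chain, at 2938 against 693 CPM. The log2 ratio of Lyz2 was 2.73, against 0.59 without the cells that carry other lineages' markers and 0.54 among cells with no Ccr7. The monocyte list summed to 7127 CPM after MI and 1555 CPM after sham, with 2 of 10 genes higher and a median log2 ratio of 2.10, against 1.25 over all genes, and its part was not tested. With 3 counts added, 21 genes in place of 152 passed 4-fold.

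Sham-operated 8 week hearts had 320 of 8963 genes (3.57%) higher than sham-operated WT P1 hearts and 20 (0.223%) lower, 3.79% in all, the 9 cells of WT P1 sham holding 120676 UMIs. Of 22 interferon-response genes 8 were higher: Isg15 was at 224 CPM in WT 8 week sham against 16.6 CPM in WT P1 sham (2 UMIs, interval 2.01 to 59.9), and Irf7 at 115 against 16.6 CPM. The other 6 were at 0 UMIs in WT P1 sham, which allows up to 24.9 CPM. Of these, the chemokine genes Cxcl9 and Cxcl10 were at 99.6 and 89.0 CPM and Ifit2 at 26.0 CPM in WT 8 week sham, while Oasl2, Rsad2 and Ifit3 (18.8, 21.8 and 24.0 CPM) were below that limit, so no fold can be given for them. Their list had a median log2 ratio of 1.68 against -0.24 over all genes. Of 27 maturation-list genes 6 were higher, with Ccl5 at 241 CPM against 0 (at least 9.70-fold) and Ccl17 at 347 against 16.6 CPM (2 UMIs), and of 18 cDC1-list genes 3 were (Itgae, Sept3 and Gcsam). Also high were S100a8, S100a9, Cd81, Dcn, Sparc, Col1a1 and complement C3. Without the cells that carry other lineages' markers C3 turned to -0.0102, and the log2 ratios of Dcn and Sparc were 1.38 and 0.70 in place of 6.30 and 5.03. Col1a1 cannot be read there. Any Col1a1 UMI leaves a cell out, so its ratio (-5.22) comes from the counts added and the library totals alone.

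Among the 20 genes lower in WT 8 week sham than in WT P1 sham, Areg was at 22.0 CPM in WT 8 week sham and 365 CPM in WT P1 sham (16.7-fold), the decoy receptor gene Ccrl2 at 27.5 and 282 CPM, the lipopolysaccharide co-receptor Cd14 at 43.5 and 423 CPM, and the adhesion molecule Icam1 at 48.4 and 373 CPM. Neat1, Ifitm6, Kdm6b and Tnip3 were the others named, at 7.21- to 8.23-fold lower. Of 16 genes of the inflammatory cytokine list compared, 1 was higher and 2 were lower.

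Mertk KO sham hearts at P1 had 69 of 2397 genes (2.88%) higher than WT sham hearts at P1 and 5 (0.209%) lower, 3.09% in all. Ccl5 was at 311 CPM in Mertk KO P1 sham against 0 in WT P1 sham (at least 12.5-fold), Cd7 at 124 CPM against 0 (at least 5.001-fold), and Apoe at 332 against 8.29 CPM (1 UMI, interval 0.210 to 46.2). S100a8, S100a9, Dynll2, Cxcl2 and Supt6 completed the 8 highest. Without the cells that carry other lineages' markers the log2 ratio was 0.65 in place of 4.48 for Cxcl2 and 1.78 for S100a8 and S100a9, in place of 5.05 and 4.85, and among cells with no Ccr7 it was 0.29 for Cxcl2. Leaving those cells out caps S100a8 and S100a9 at 2 UMIs per cell, so their fall is partly built in. Lower were Ccrl2 (23.3 against 282 CPM), Areg (44.7 against 365 CPM), Cd14 (56.3 against 423 CPM), Cebpb (66.1 against 290.0 CPM) and Mgl2 (69.9 against 282 CPM). Ccrl2, Areg and Cd14 were thus lower than WT P1 sham in both comparisons, which share that library of 9 cells. Of 12 maturation-list genes 4 were higher, with a median log2 ratio of 0.62 against 0.07 over all 2397 genes. Fscn1 was among them, at 75.8 CPM against 0 (limit 24.9 CPM).

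**Figure D5:**
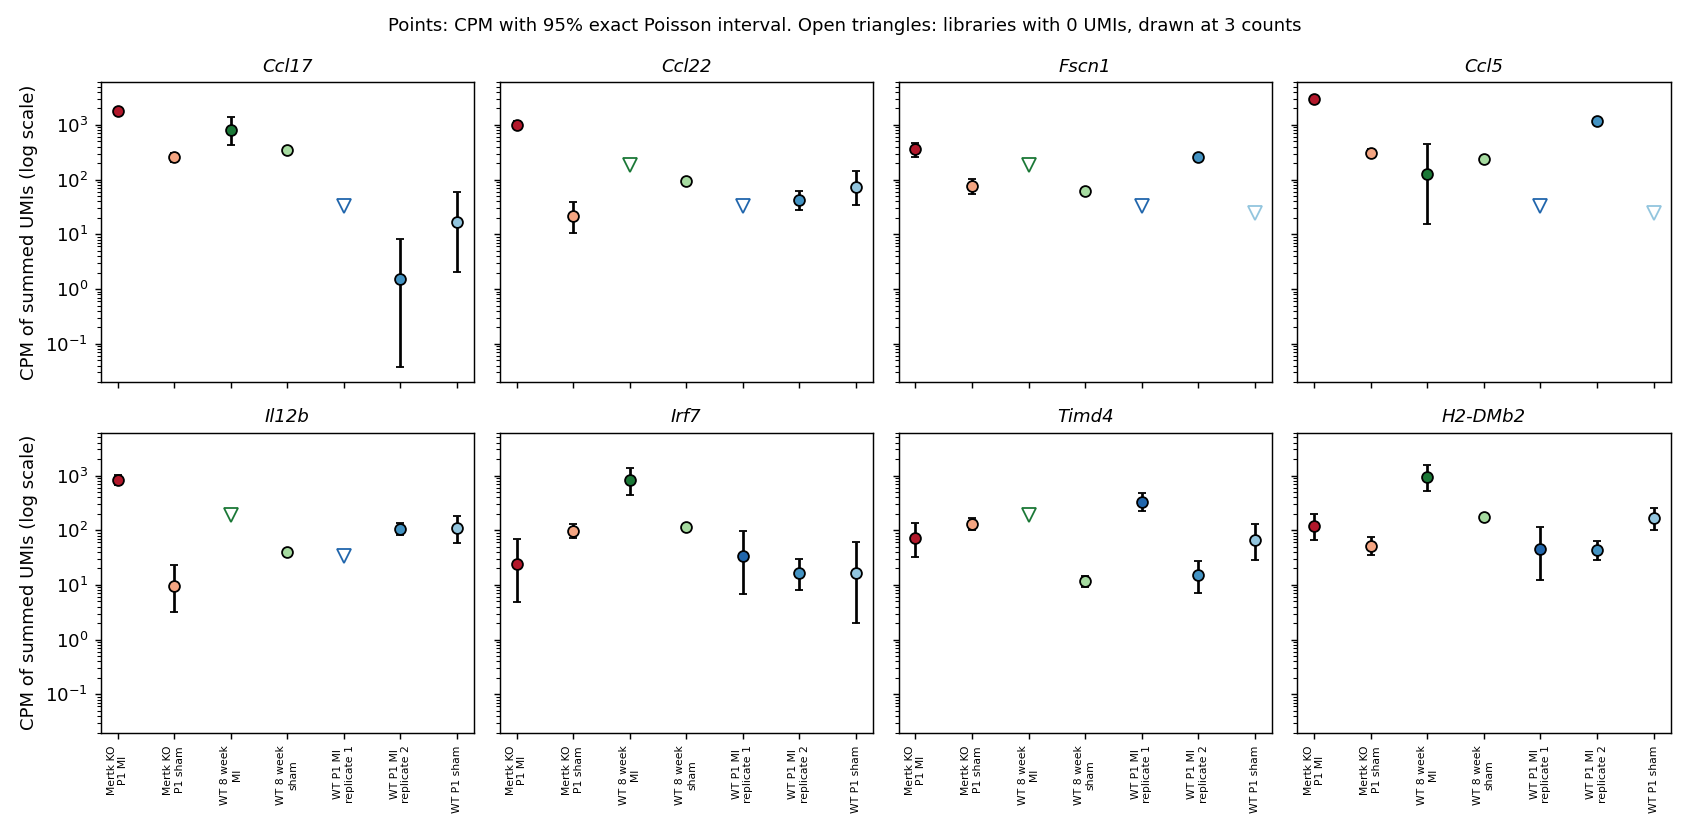
CPM of summed UMIs (y axis, log scale) of 8 genes in the dendritic cells of each of the 7 libraries (x axis), with exact Poisson 95% intervals for counting error. Open triangles mark libraries with 0 UMIs, drawn at the level of 3 counts; Ccl17 stands at 1787, 254.5, 813 and 347 CPM in the Mertk KO and WT 8 week libraries and at 0 to 16.6 CPM in the 3 WT P1 libraries.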

How the data were processed

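Hearts of 6 groups gave 7 libraries of 10x single-cell RNA counts. The authors deposited filtered matrices of whole-number UMI counts for each gene in each barcode, with no scaling. Cell Ranger 6.1.0 (WT 8 week sham, WT P1 MI replicate 2) or 4.0.0 (the other 5) made them, per the file headers, on GRCm38/mm10, per the submitters' processing notes. Kept barcodes (40158 of 44318) had at least 500 UMIs, 300 genes and a mitochondrial share of at most 15%, with no doublet removal except as an alternative. A further 8 barcodes that meet the rule were lost to this filter. The members and gene lists were chosen with earlier results of these data known.

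Levels are UMIs per 1000000 UMIs of the summed cells (CPM), and a 0 is limited at 3 counts per library. Summed counts were tested with edgeR 4.0.16 (limma 3.58.1, R 4.3.3) by the quasi-likelihood test with TMM scaling, 1 fit over all libraries, adjusted p under 0.05 and a 2-fold change, with DESeq2 1.42.0 as an alternative. The SE printed after ± was worked back from the test, as the absolute log2 fold change over the square root of its F statistic. Pairs of lone libraries were compared as log2 ratios with 0.5 counts added, and classes within a library with 1 count shared in proportion to their totals. The script was tested on simulated counts. Named genes were the 10 largest and smallest called, or the 8 largest and smallest past 4-fold, without mitochondrial, ribosomal, haemoglobin, immunoglobulin, sex-linked and rule genes, with 2 to 6 of each list. Alternatives changed the tool, scaling, filter, libraries, counts added, depth (thinning to 1500 UMIs), the rule, doublets (Scrublet in scanpy 1.11.5, 0.8% per 1000 barcodes) and cells with other lineages' markers (S100a8 or S100a9 above 2 UMIs, or any Col1a1, Cdh5, Cd79b, Cd3d or Cd3g). Python 3.11.15, scipy 1.17.1 and numpy 2.4.6 were used, with matplotlib 3.10.9 for plots. A few genes that the naming rule picks are not reported here.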

Additional observations from a re-analysis of the deposited data

How the results depend on the processing

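No paired analysis was possible because only WT P1 MI has replicate numbers. Counts of genes called by the edgeR test moved with nearly every choice, and the cause was not tested. For WT P1 MI over WT P1 sham (0 called) they were 1 with DESeq2, 40 with no low count filter, 42 with only the libraries compared and 26 without cells holding other lineages' markers. For WT 8 week MI over WT P1 MI (1 called) they were, for the same alternatives, 28, 26, 0 and 58, with 0 among cells with no Ccr7, 36 with doublets removed and 0 with Ccl17 taken without the highest cell of every library. For Mertk KO P1 MI over WT P1 MI (1 called) they were 9 with no filter, 8 with only the libraries compared, 15 without cells holding other lineages' markers, 0 with no Ccr7, 5 with doublets removed and 0 without the highest Ccl17 cell of every library. The adjusted p of Ccl17 ran over these alternatives from 6.46e-10 to 0.389 for WT 8 week MI over WT P1 MI and from 1.51e-30 to 1 for Mertk KO P1 MI over WT P1 MI. In that last comparison its log2 fold change was -3.78 ± 7.06 with no Ccr7, on 0 UMIs against 1. Leaving out 1 WT P1 MI library allows no test, and genes 4-fold apart then numbered 25 to 181, 77 to 185 and 59 to 126 in these 3 comparisons, the lower value each time without replicate 2. Between lone libraries, WT 8 week MI over sham gave 341 genes 4-fold apart with TMM and 21 with 3 counts added. WT 8 week sham over WT P1 sham gave 214 with no Ccr7 and 49 with 3 counts (24 higher, 25 lower). Mertk KO P1 sham over WT P1 sham gave 46 without cells of other lineages' markers and 18 with 3 counts (13 higher, 5 lower), and Mertk KO P1 MI over sham gave 144 and 31 (24 higher, 7 lower). Without cells holding other lineages' markers the log2 ratio turned to 0.85 for Sparc and 1.75 for Dcn in WT 8 week MI over sham, -5.22 for Col1a1 and -0.0102 for C3 in WT 8 week sham over WT P1 sham, and -0.13 for Dcn and 1.01 for Mgl2 in Mertk KO P1 MI over sham. With no Ccr7 it turned to -1.34 for Hp and -0.42 for Apoc2 in that last comparison. There the turned values of Dcn, Mgl2, Hp and Apoc2 rest on the counts added and give no direction. Requiring 3 of the 6 dendritic genes made the share of cells 0.0757% in Mertk KO P1 MI, 0.651% in Mertk KO P1 sham, 0 in WT 8 week MI, 1.83% in WT 8 week sham, 0.158% in WT P1 MI replicate 2 and 0.189% in WT P1 sham. It made the cDC1 side 80% in Mertk KO P1 MI, 86.4% in WT 8 week sham, and 100% and 93.8% in WT P1 MI replicates 1 and 2, and the cDC2 side 7.86% in WT 8 week sham, and 0 and 6.25% in WT P1 MI replicates 1 and 2. Without cells of other lineages' markers the share was 0.0757% in Mertk KO P1 MI, 2.03% in WT 8 week sham and 0.168% in WT P1 MI replicate 2. Thinned to 1500 UMIs it was 0.0482% and 0.288% in Mertk KO P1 MI and sham, 0.621% in WT 8 week sham, 0 in WT P1 MI replicate 1, 0.0327% in replicate 2 and 0.137% in WT P1 sham, with a cDC1 side of 33.3% and a cDC2 side of 0 in WT P1 MI replicate 2. No fit could be made on thinned cells, because too few libraries kept 5 of them. Within libraries, a 4-fold mark left 284 genes between the sides, 104 against C1q cells and 73 by Ccr7, and a minimum of 5 cells per class gave 528, 297 and 248. The other 98 counts and shares recomputed moved by less than 1.5 times or stayed inside their interval.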
